A study of Caenorhabditis elegans with 36 samples.

Results

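RNA of repeat families was compared between young adult Caenorhabditis elegans carrying mutations in both nip2 and nip3 (labelled nip2_nip3) and young adults carrying the qe17 mutation of nip3 alone (nip3_qe17), which asks what loss of nip2 adds where nip3 is already lost. The comparison takes 6 libraries, 3 of each genotype, out of 36 in the series and 20 of adult RNA. The study examined 3 candidate genes for inheritance of RNA silencing across generations, called nip1, nip2 and nip3. Other adult RNA libraries used here are 3 of wild type (wt), 3 of the nip2 mutant tb1609, 2 of the nip3 mutant qe20, 2 of the nip1 mutant tb1601 and 3 of the triple mutant nip1_nip2_nip3. All worms were grown at 20 °C on the Escherichia coli strain HB101. The labels do not give the alleles of nip2 and nip3 in the double or triple mutant, so the nip3 lesion of nip2_nip3 is not known to be qe17. The table holds repeat families and no genes, so neither the mutated genes nor tissue markers could be read in these libraries.

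Transposable elements move or copy themselves within genomes. DNA transposons are excised and reinserted by a transposase, LTR and LINE retroelements copy themselves through an RNA, and Helitrons are thought to move by rolling-circle replication. In C. elegans their RNA is a known target of small RNAs bound by Argonaute proteins, among them the 22G-RNAs made by RNA-dependent RNA polymerases, and loss of these pathways is known to let some elements be transcribed or move in the germline. A family here is a set of annotated genomic copies that share a repeat name, and a family's count sums the reads over all its copies.

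Of 403 repeat families, 288 were transposable element families and 165 of those had enough reads to be tested. The 6 libraries held between 35326 and 83374 counts on transposable elements. One family, the tRNA-derived SINE CELE45, took very unequal shares of these counts. Its share was 61.4%, 5.14% and 6.51% in nip2_nip3 libraries 1, 2 and 3, and 8.05%, 26.9% and 5.18% in nip3_qe17 libraries 1, 2 and 3. Library 1 of nip2_nip3 and library 2 of nip3_qe17 therefore stand apart, and the comparison was also computed without that pair. Without CELE45 the 6 libraries held between 32178 and 40233 counts. Levels are given in CPM, the usual unit of counts brought to a common library total, relative here to the counts on the tested families after TMM scaling. Library 1 of nip3_qe17 differed in another respect. CER9-I_CE, the internal part of a Pao-type LTR retroelement, stood at 14052 and 28433 CPM in nip3_qe17 libraries 2 and 3, and between 7028 and 35686 in the 8 libraries of nip2_nip3, nip3_qe20 and the triple mutant. It stood at 921 in nip3_qe17 library 1, inside the range of 894 to 1275 in wt. That library was not like wt in every family. CER6-I_CE, the internal part of a Gypsy-type LTR retroelement, gave 18.5 counts there and 0 in each wt library. The element gave 9 and 14 counts in nip3_qe17 libraries 2 and 3, and 16 and 8 in the nip1 mutant.

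After scaling within the tested families, RNA of the double mutant differed widely from nip3_qe17 in a single family, the DNA transposon MIRAGE1. It also differed in a second, short element called IR4. Both were higher in nip2_nip3, and no family was called lower. These are 2 of 165 families, or 1.21%, at an adjusted p under 0.05 by edgeR's quasi-likelihood test with Benjamini-Hochberg adjustment over the 165. At an unadjusted p under 0.05 there were 11 families, 8 higher and 3 lower. The median log2 fold change of the 165 families was 0.03. TMM scaling within these families holds the typical change near 0. A general rise or fall of transposable element RNA therefore cannot be seen here, and this median does not bear on it. The labels do not say that libraries of one genotype came from separate cultures, and the p-values cover no more than the spread among the libraries sequenced, which may be technical. In whole worms, fewer cells that make an RNA and less RNA per cell cannot be told apart.

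**Figure D1:**
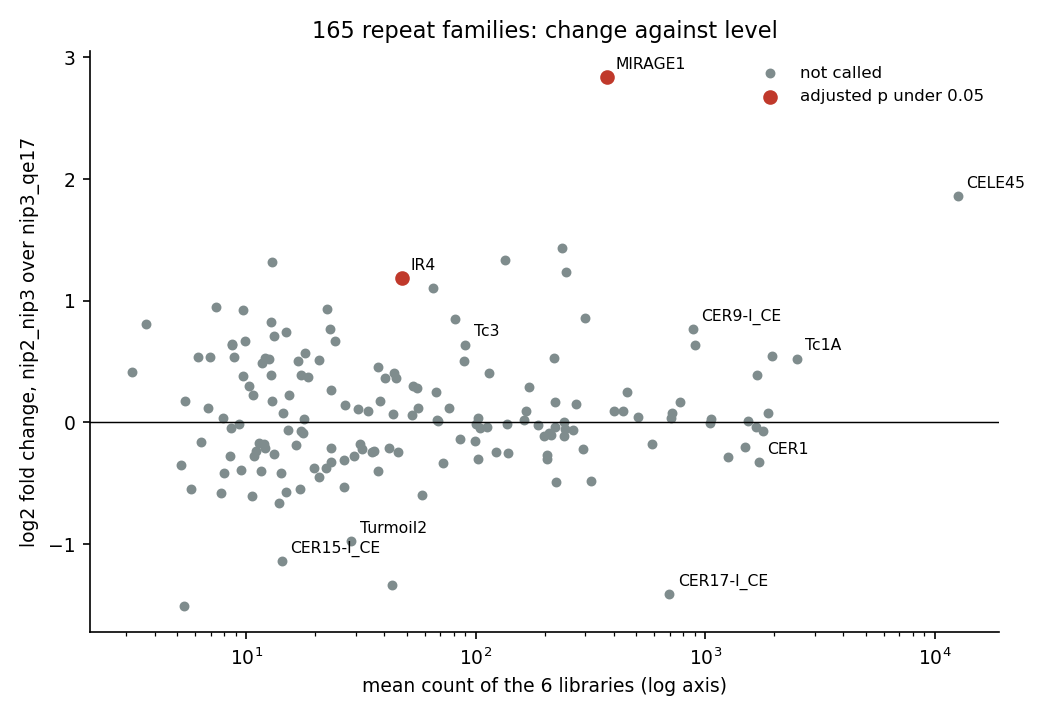
Each point is 1 of 165 transposable element families, placed by its mean count in the 6 libraries (log axis) and by its log2 fold change of nip2_nip3 over nip3_qe17. MIRAGE1 (2.84) and IR4 (1.18), in red, are the called families, while CELE45 (1.86) is abundant and high but not called.

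MIRAGE1 belongs to the Mirage branch of the CMC superfamily of DNA transposons, which carry their own transposase. It gave 231, 1103 and 598 counts in nip2_nip3 libraries 1 to 3 and 97.8, 71 and 146 counts in nip3_qe17 libraries 1 to 3. As CPM these were 5939, 24178 and 14291 against 1704, 1380 and 3138. Every double mutant library was above every nip3_qe17 library, and the lowest of the former was library 1, the one dominated by CELE45. The mean level was 14803 ± 9130 CPM (SD, n = 3) against 2074 ± 936 (SD, n = 3). The fitted difference was 7.15-fold, a log2 fold change of 2.84 (SE 0.42, 95% interval 1.94 to 3.74, adjusted p = 0.000972). Without the 2 libraries in which CELE45 stood apart, the log2 fold change was 3.03 (adjusted p = 8.37e-05). Without nip3_qe17 library 1 it was 2.71 (adjusted p = 0.0133). Fitted on the 6 libraries alone it was 2.80 and not called (adjusted p = 0.225), and by library totals without TMM it was 2.68 and not called (adjusted p = 0.123).

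The level of MIRAGE1 in nip2_nip3 stood above that of every other genotype. The 16 other libraries in the fit lay between 781 and 3138 CPM. Wild type gave 1379, 1457 and 1269 CPM, and the nip2 single mutant gave 781, 1554 and 1557. The qe20 mutant of nip3 gave 1528 and 1282, and the nip1 mutant gave 1836 and 1471. All 3 double mutant libraries lay above this whole range. Per kilobase of annotated copies, MIRAGE1 RNA stood at 291 CPM in nip2_nip3 and 40.8 CPM in nip3_qe17.

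The triple mutant, which also carries nip2 and nip3 mutations, did not share the level of MIRAGE1 seen in the double mutant. It gave 2501, 2174 and 2408 CPM, below all 3 double mutant libraries and inside the range of nip3_qe17. Triple against double gave a log2 fold change of -2.65 (adjusted p = 0.00199). Of 165 families, MIRAGE1 was the only one called lower in the triple than in the double mutant, or 0.606%, and Turmoil2 the only one called higher. Against nip3_qe17, the triple mutant had a log2 fold change of 0.19 for MIRAGE1 (adjusted p = 0.927), and none of 165 families was called, with 8 at an unadjusted p under 0.05 by the same edgeR test. The same count of 0 called and 8 at an unadjusted p under 0.05 held against nip3_qe20. The added nip1 mutation and any difference in alleles or strain history between the double and triple mutant cannot be told apart.

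**Figure D2:**
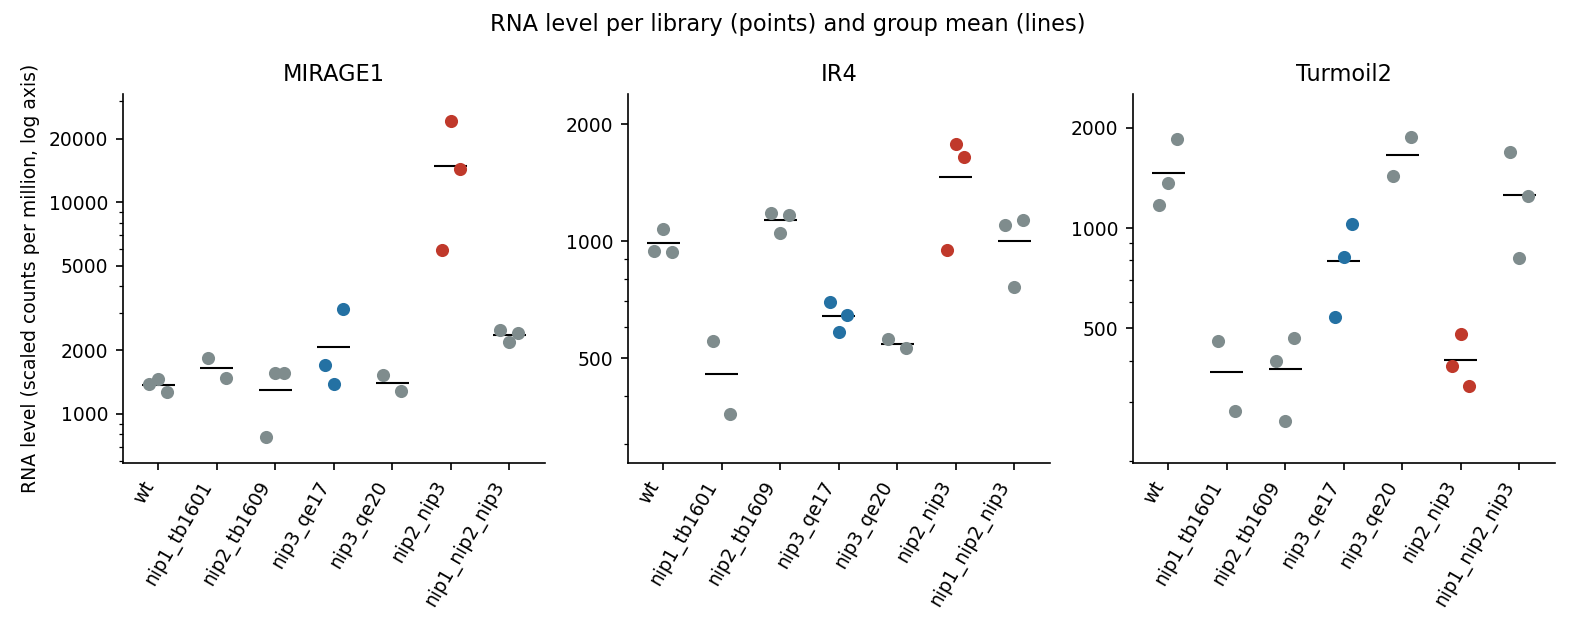
RNA level of MIRAGE1, IR4 and Turmoil2 in each of 19 libraries (points, scaled CPM on log axes) with group means (black lines), nip2_nip3 in red and nip3_qe17 in blue. MIRAGE1 stands between 5939 and 24178 in nip2_nip3 and between 781 and 3138 elsewhere, and Turmoil2 is lowest in nip1_tb1601, nip2_tb1609 and nip2_nip3.

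The table places 51 copies of MIRAGE1 in the genome (build ce11), covering 50856 bases. Of these, 31 are shorter than 300 bases. The 6 longest are between 5617 and 5625 bases and together hold 66.3% of the family's bases. Whether these are complete elements was not tested. The 6 long copies lie at chrII:1076026-1081644, chrII:14687826-14693449, chrIV:507687-513308, chrIV:701905-707528, chrV:765783-771399 and chrV:3325117-3330741. By gene bounds of WBcel235, the assembly that ce11 names, the first copy on chromosome IV lies within pig-1, the second within cutl-26, and the first on chromosome V within str-238. Counts are summed over copies, so the reads cannot be assigned to any one of them. Of the family's bases, 0.576% are shared with copies of other families. In all, 20 of 51 copies (39.2%) overlap gene bounds by at least 1 base, against 60.6% of 50176 copies of all transposable element families.

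The 5 other tested families of the CMC superfamily were not called. Their log2 fold changes ran from -0.17 to 0.95, with a median of -0.04. The most abundant of them, Chapaev-1_CE, gave 37174, 18961 and 16538 CPM in nip2_nip3 and 10169, 19863 and 16677 in nip3_qe17. These values overlap, and the difference was 0.64 (SE 0.31, adjusted p = 0.762).

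IR4, an unclassified DNA element, has 115 annotated copies with a median length of 200 bases and none above 231, so no copy is long enough for a transposase gene. It gave 37, 80.7 and 68.8 counts in nip2_nip3 and 39.5, 30.2 and 29.9 in nip3_qe17. As CPM the values were 951, 1776 and 1649 against 695, 583 and 645, and the groups did not overlap. The difference was 2.27-fold, a log2 fold change of 1.18 (SE 0.24, 95% interval 0.67 to 1.70, adjusted p = 0.0160). Wild type, at 945, 1075 and 939 CPM, lay above all nip3_qe17 libraries and overlapped the lowest double mutant library. Against wt, nip2_nip3 was at 0.56 (adjusted p = 0.213) and nip3_qe17 at -0.62 (adjusted p = 0.254), neither called. The nip3_qe20 mutant, at 559 and 530 CPM, was below every wt and nip2_nip3 library, as nip3_qe17 was. Low values were neither confined to nip3 mutants nor shared by all of them. The nip1 mutant, nip3 intact by its label, gave 40.8 and 19.3 counts at scaled totals of 74083 and 53023, lower in CPM than wt. The triple mutant gave 71.7, 28 and 49 counts at totals of 65575, 36797 and 43191, above every nip3_qe17 library in CPM. The nip2 single mutant gave 70.9, 48 and 45 at 60181, 45676 and 38539, overlapping wt in CPM. The call on IR4 depended on single libraries: it was lost without any 1 of the 5 libraries other than nip2_nip3 library 1, with log2 fold changes of 1.02 to 1.25 and adjusted p of 0.0533 to 0.140. Of its copies, 68 (59.1%) overlap gene bounds, some of them only in part. The counts do not separate reads of the element from reads of a host transcript that runs through it.

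Counting MIRAGE1 and IR4, 10 of 165 families (6.06%) had all 3 nip2_nip3 libraries above all nip3_qe17 libraries. In 2 (1.21%) all 3 were below, or 12 in all (7.27%). Full separation of 3 against 3 libraries has an exact two-sided permutation p of 0.1, a share that 7.27% does not exceed. Tc3, a Tc1/mariner DNA transposon known to be mobilised in mutator strains of the worm, gave 2031, 2477 and 2605 CPM against 1547, 1535 and 1483. The groups were apart, and the log2 fold change of 0.64 (SE 0.19) had an adjusted p of 0.196 and was not called. Wild type, at 2170, 2094 and 2005, overlapped the double mutant. CELE14A, a short non-autonomous DNA element, gave 6376, 6050 and 4445 CPM against 4033, 3518 and 4126, with a log2 fold change of 0.53 (SE 0.17, adjusted p = 0.262). Tc1A, a family of the Tc1 group with no copy above 734 bases, gave 63911, 57102 and 70835 CPM against 51192, 49094 and 33247. These were also without overlap, at 0.52 (SE 0.22, adjusted p = 0.554). Tc1 itself, the best known active transposon of the worm, is a separate family of 40 copies with a median of 1611 bases. It gave 54, 41 and 23 counts in nip2_nip3 against 40.5, 33 and 34.5 in nip3_qe17, which overlap, and was not called. NPALTA1_CE, another short DNA element, was at 0.77 (adjusted p = 0.357) with overlapping groups.

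On the lower side the smallest unadjusted p belonged to Turmoil2, a PIF/Harbinger DNA transposon. The table lists a single copy of Turmoil2, 6999 bases at chrV:17641680-17648678, within the bounds of the F-box gene fbxa-192. It gave 15, 22 and 14 counts in nip2_nip3 and 31, 42 and 48 in nip3_qe17, or 386, 482 and 335 CPM against 539, 816 and 1032. All 3 double mutant libraries were below all nip3_qe17 libraries, but the log2 fold change of -0.98 (SE 0.34) was not called (edgeR adjusted p = 0.357, unadjusted p = 0.0115). Reads from fbxa-192 transcripts and from the element cannot be separated in this count.

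Turmoil2 was also the family that differed between the nip2 single mutant and wt. The nip2 single mutant gave 399, 263 and 467 CPM and wt gave 1174, 1366 and 1852, groups far apart. The log2 fold change was -1.96 (SE 0.34, adjusted p = 0.00505), the single call of nip2_tb1609 against wt among 165 families (0.606%). Leaving out nip2_tb1609 library 2 ended this call (-1.79, adjusted p = 0.0654). The nip3_qe20 mutant, at 1435 and 1879 CPM, overlapped wt, and against it the double mutant was lower by a log2 fold change of -2.04 (adjusted p = 0.00345). The triple mutant, at 1693, 815 and 1250 CPM, was higher than the double mutant by 1.65 (adjusted p = 0.0148). The nip1 mutant, with nip2 intact by its label, gave 459 and 283.

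The 4 other families of smallest unadjusted p on the lower side overlapped between the groups. They were HelitronY1_CE at -0.49 (adjusted p = 0.554), the Pao retroelement CER15-I_CE at -1.14 (adjusted p = 0.554), the DNA element NDNAX3_CE at -0.60 and the Helitron HELITRON7_CB at -0.48 (both adjusted p = 0.806). CER15-I_CE stood at 308, 110 and 143 CPM in nip2_nip3, 556, 408 and 258 in nip3_qe17 and 1021, 1002 and 711 in wt. Both mutants were thus below wt in all libraries, and the double mutant was called against wt, at -2.29 (adjusted p = 0.00714).

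Among the 10 families with the highest mean counts, log2 fold changes ran from -0.33 to 1.86, none called. Tc1A is one of these. CELE45 was highest at 1.86 (SE 1.19, adjusted p = 0.806), and its sign rested on 1 library: without nip2_nip3 library 1 the log2 fold change was -1.43. The Harbinger element Turmoil1, a relative of Turmoil2, gave 69078, 45725 and 38118 CPM against 24753, 46801 and 33462, which overlap (0.54, adjusted p = 0.806). The Gypsy-type retroelement CER1, whose particles are known to accumulate in the worm germline, gave 15862, 49211 and 30757 against 38137, 26374 and 55620 (-0.33, adjusted p = 0.894). HelitronY1A_CE was at -0.20 (adjusted p = 0.849), and the 5 others of the 10 lay between -0.07 and 0.39.

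Some families varied too widely between libraries of one genotype for the comparison to say much. In 12 families the fitted change was above 2-fold, 8 higher and 4 lower, and 10 of these were not called, with standard errors of 0.49 to 1.19. In 9 of the 10, nip2_nip3 library 1 was the highest (6 families) or the lowest (3 families) of the 6 libraries, the library in which CELE45 took 61.4% of counts. The internal part of the Pao retroelement CER17-I_CE shows the spread, with 334, 15388 and 6954 CPM in nip2_nip3 and 31549, 4451 and 24393 in nip3_qe17. In both genotypes the lowest CER17-I_CE value was in the library with the largest CELE45 share. At the other end, the 95% interval of 70 of the 165 families lay inside a 2-fold change in either direction. For those families a larger change relative to the typical family is outside the interval. The median width of the interval was 1.60 on the log2 scale.

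**Figure D3:**
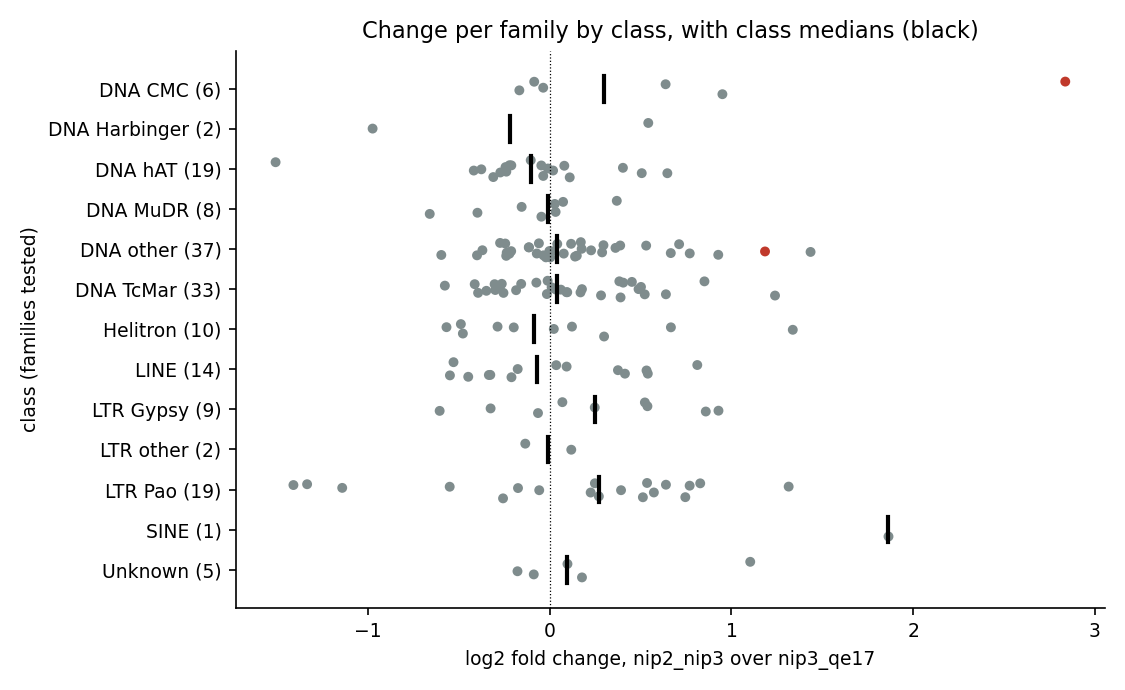
Log2 fold change of nip2_nip3 over nip3_qe17 for each tested family (points, called families in red), by repeat class with the number tested, and class medians as black bars. Points of all classes lie on both sides of 0 except the single SINE family, and the 2 called points belong to the CMC and other DNA classes.

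By class, DNA elements held both calls, and every class with more than 1 tested family had log2 fold changes on both sides of 0. Tc1/mariner families, 33 tested, had 19 positive and 14 negative log2 fold changes and a median of 0.04. Other and unclassified DNA families, a list that also holds a few PiggyBac, Maverick, Merlin and Sola elements, had 21 positive and 16 negative of 37, with a median of 0.04, and hAT families had 6 positive and 13 negative of 19, with a median of -0.10. Among retroelements, Pao families had a median of 0.27 (12 positive and 7 negative), Gypsy families 0.25 (6 and 3) and LINE families -0.07 (7 and 7), and Helitrons had -0.09 (5 and 5). The median of all families was 0.03, and the scaling within these families holds it near 0, so class medians are relative to that level. As shares of transposable element counts, none of 13 classes separated the 2 genotypes, and the smallest exact two-sided permutation p was 0.3, where 3 against 3 libraries cannot go below 0.1. The CMC share was 2.23%, 5.76% and 4.23% in nip2_nip3 and 2.06%, 2.45% and 3.46% in nip3_qe17. With CELE45 left out of the total it was 5.78%, 6.08% and 4.53% against 2.24%, 3.35% and 3.65%, which do not overlap (exact permutation p = 0.1). This share includes the counts of MIRAGE1, the family already called in these libraries, so it is no separate result for the class. The share without MIRAGE1 was not tested.

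Comparing nip2_nip3 with nip3_qe17 and nip2_tb1609 with wt asks whether loss of nip2 changed the same families with and without nip3, and these comparisons share no library. The alleles of the double mutant are not given, so loss of nip2 and a difference in alleles cannot be told apart in the first comparison. For MIRAGE1 the answers differed: the log2 fold change was 2.84 with nip3 mutated and -0.09 (SE 0.42) with nip3 intact by label. The interaction, which tests that difference itself, was 2.92 (SE 0.59, adjusted p = 0.0239), the only call among 165 families (0.606%). The call was lost without any 1 of 7 libraries (nip2_nip3 2 and 3, nip3_qe17 1 and 2, nip2_tb1609 1, wt 2 and 3), where its value was between 2.38 and 2.97 and its adjusted p between 0.0517 and 0.0966, and by library totals without TMM (3.11, adjusted p = 0.255). For Turmoil2 the interaction was 0.98 (SE 0.48, adjusted p = 0.990) and for IR4 it was 0.99 (SE 0.34, adjusted p = 0.569), neither called, so a difference between the contexts was not shown for them. Across the 165 families the log2 fold changes of both comparisons had a Pearson r of 0.39 and a Spearman rho of 0.34. This is a description across families and no test, since all families share the same libraries. The CELE45 share was 47.7%, 35.7% and 25.5% in nip2_tb1609 against 20.6%, 16.1% and 13.1% in wt, without overlap. In nip2_nip3 it was above all nip3_qe17 libraries in library 1 alone, at 61.4%, with 5.14% and 6.51% in the others. The part of CELE45 in that r was not tested.

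**Figure D4:**
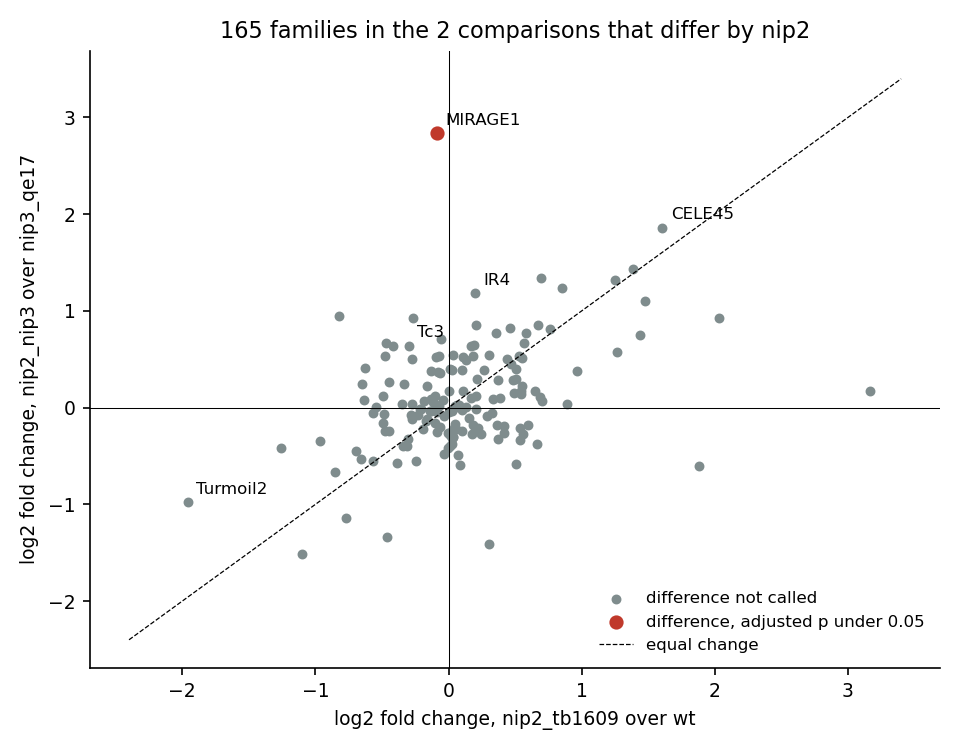
Each point is 1 of 165 families, with its log2 fold change of nip2_tb1609 over wt (horizontal) and of nip2_nip3 over nip3_qe17 (vertical), and a dashed line of equal change. MIRAGE1, in red, lies far above the line at -0.09 and 2.84, and Turmoil2 is negative on both axes.

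Both calls also held with the second nip3 allele as the comparison. Against nip3_qe20, MIRAGE1 was higher by 3.39 (adjusted p = 0.00118) and IR4 by 1.42 (adjusted p = 0.00813), and Turmoil2 was lower as given above, 3 families of 165 (1.82%). The nip2_nip3 libraries are the same in both comparisons. The CELE45 share was 7.21% in nip3_qe20 library 1 and 52.8% in library 2, so library 2 stands apart as well. Between the nip3 alleles themselves, qe17 against qe20, none of 165 families was called, with 6 at an unadjusted p under 0.05 by the same edgeR test. With 3 libraries against 2, and a library of high CELE45 share on each side, the absence of calls does not show that the alleles are alike. Against wt, nip2_nip3 had 8 called families of 165 (4.85%), 6 higher (3.64%) and 2 lower, and nip3_qe17 had 2, both higher. The 2 comparisons share the wt libraries, and their values are given side by side. MIRAGE1 was higher than wt in nip2_nip3 by 3.43 (adjusted p = 0.000143), while nip3_qe17 was at 0.60 (adjusted p = 0.548).

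Small RNAs of the same genotypes, sequenced from young adults in separate libraries, cover 188 tested families, of which 23 (12.2%) were higher and 12 (6.38%) lower in nip2nip3 than in nip3_qe17. Their levels are CPM relative to the TMM-scaled small RNA counts on genes. MIRAGE1 small RNA was 140, 154 and 161 CPM in nip2nip3 and 68.1, 81.7 and 80.2 in nip3_qe17, without overlap. The difference was 0.98 (SE 0.10, adjusted p = 2.97e-05). Against wt, loss of small RNA was common, with 132 of 188 families (70.2%) called in nip2nip3, 93 of them lower (49.5%), and 123 (65.4%) in nip3_qe17, 100 of them lower (53.2%). Wild type gave 299 and 349 CPM for MIRAGE1, above both mutants. Its small RNA was lower in the double mutant than in wt by a log2 fold change of -1.09 (adjusted p = 2.95e-06) and lower in nip3_qe17 than in wt by -2.07 (adjusted p = 2.68e-08). The order of the genotypes was not the same for both kinds of RNA: nip3_qe17 had the least MIRAGE1 small RNA but RNA not distinguished from wt, while nip2_nip3 had the most RNA and an intermediate level of small RNA.

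For IR4 the small RNA was also higher in nip2nip3, with 160, 172 and 178 CPM against 115, 127 and 105 (0.56, SE 0.09, adjusted p = 0.000956). For Turmoil2 it went the other way from the RNA. Small RNA of Turmoil2 was 825, 887 and 835 CPM in nip2nip3, 190, 189 and 185 in nip3_qe17 and 281 and 278 in wt. The double mutant was thus above both other genotypes in every library, by 2.17 against nip3_qe17 (SE 0.07, adjusted p = 1.00e-09), where its RNA was at -0.98 and not called.

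**Figure D5:**
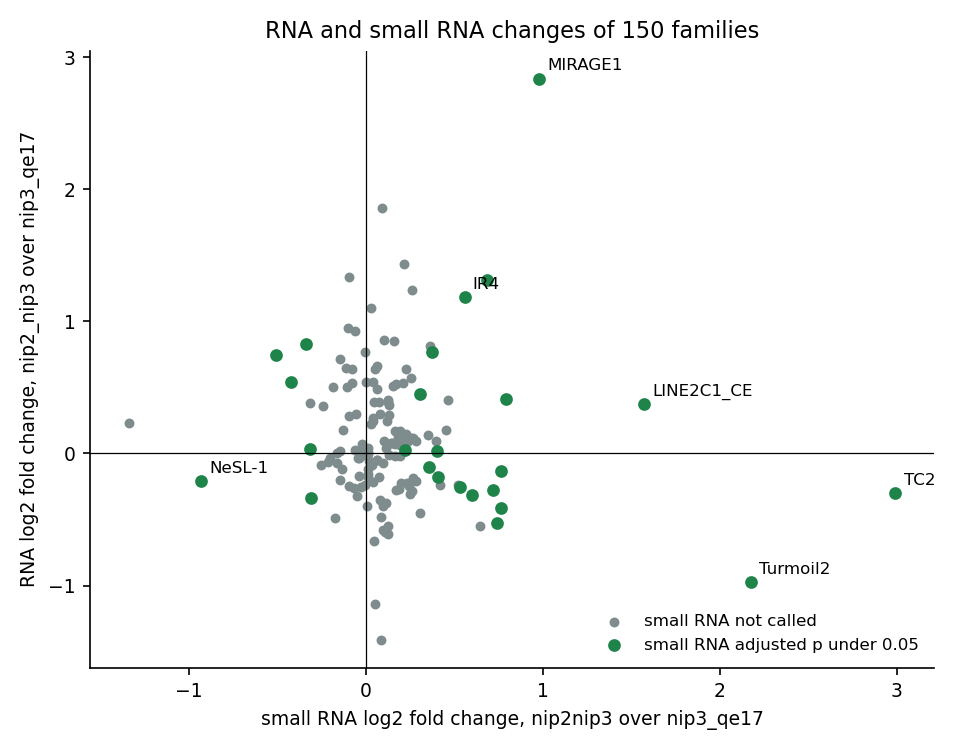
Log2 fold change of RNA (vertical) against that of small RNA (horizontal), double mutant over nip3_qe17, for 150 families tested in both, with families called in small RNA in green. MIRAGE1 and IR4 lie at the upper right, Turmoil2 at the lower right, and TC2, with the largest small RNA change (2.99), lies near 0 on the RNA axis.

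No other family called in small RNA was called in RNA. TC2, a Tc1/mariner transposon, had the largest gain, with small RNA at 1908, 1977 and 2057 CPM in nip2nip3 against 202, 266 and 277 in nip3_qe17 (2.99, adjusted p = 7.50e-09), while its RNA was at -0.30 (SE 0.37, adjusted p = 0.897). The LINE family LINE2C1_CE was higher in small RNA by 1.57 (adjusted p = 1.76e-08) and stood at 0.38 in RNA (adjusted p = 0.806). NeSL-1, a LINE retroelement that inserts in spliced leader genes, was lower in small RNA by -0.93 (adjusted p = 2.62e-06) and stood at -0.21 in RNA (adjusted p = 0.880). Of the 23 families with more small RNA, 19 were tested for RNA, 9 with positive and 10 with negative RNA log2 fold changes, and 2 were called, MIRAGE1 and IR4. Of the 12 with less small RNA, 6 were tested, 4 positive and 2 negative, none called. Across 150 families the Pearson r was -0.06 and across the 73 with a mean of at least 50 counts it was 0.10, given as descriptions only.

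Small RNAs were also read at genes whose bounds overlap copies of these elements. Of 13 genes with a MIRAGE1 copy, 6 were tested in the small RNA gene table, with 1 higher and 1 lower, where 2.72% of 16585 genes were higher and 1.47% lower. The higher one was cutl-26, which holds a long copy and is a cuticlin-like gene by its family name. It had 89, 78 and 133 small RNA counts in nip2nip3, 1 count in each nip3_qe17 library, and 0 and 4 in wt (adjusted p = 1.43e-05). All 3 double mutant libraries were far above the others, although the counts cannot say whether the reads lie in the element or in the gene. The lower one was pig-1, a kinase gene that acts in asymmetric cell division and also holds a long copy, with 152, 143 and 146 CPM against 233, 234 and 204 (-0.61, SE 0.10, adjusted p = 0.00579). The third host of a long copy, str-238, a chemoreceptor gene by its family name, was at 0.83 (adjusted p = 0.230). At fbxa-192, which surrounds Turmoil2, small RNA was higher by 0.98 (adjusted p = 0.000267). Of the genes that overlap IR4 copies, 54 were tested, with 1 higher, 5 lower and a median log2 fold change of -0.09, beside 0.02 for all genes.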

How the data were processed

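Libraries of total RNA from young adults, made with a NEB Next Ultra kit per the labels' protocols, were summarised in a deposited table of estimated counts per repeat family, with fractions where reads were shared. The table's name adds polyA, which the library labels do not state. STAR, featureCounts and DESeq2 are named in the submitters' processing notes with build ce11 and no versions, and cutadapt also for small RNA. How multi-mapped reads were shared out is not given in the sources used here. The small RNA tables hold deposited estimated counts per family and per gene.

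Counts were rounded and fitted with edgeR 4.0.16 (R 4.3.3): 19 libraries of 7 genotypes, filterByExpr, TMM within the table, the quasi-likelihood F-test and Benjamini-Hochberg adjustment, called under 0.05. The lone nip1_nip2 library was left out for want of a replicate, as were simple, low-complexity and satellite repeats. Small RNA families were scaled with the gene table's TMM factors and library sizes. Standard errors are the log2 fold change divided by the root of F. Class shares were tested by exact permutation. Genes were placed by WBcel235 bounds, and a copy was counted with a gene when any base overlapped. The comparison of the double mutant with nip3_qe17 was tried on simulated counts of RNA families, small RNA families and small RNA genes. The simulated spread was fixed and not matched to these libraries, and small RNA families were scaled within their own table there. The other comparisons were not simulated.

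Families named were those called, the 5 of smallest p in each direction, the most abundant overall and per class, and families called in the interaction. Several of the most abundant are given by range only. TC2, LINE2C1_CE, Tc1, cutl-26, pig-1 and str-238 were named after their values were seen. Members, lists and tests were chosen with earlier results of these data known. Replicate numbers did not pair the libraries: deviations of same-numbered libraries correlated at -0.39, -0.75 and 0.26. Replicates of a genotype differed by more than counting noise, at a chi-square per degree of freedom of 8.16 or more. Alternatives covered scaling, filters, DESeq2 1.42.0, a replicate block, the libraries in the fit and, added after the data were seen, the handling of CELE45 and other comparison groups.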

Additional observations from a re-analysis of the deposited data

Results flagged for a closer look

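The difference in MIRAGE1 RNA between nip2_nip3 and nip3_qe17 was not that between nip2_tb1609 and wt. It was a log2 fold change of 2.84 for nip2_nip3 against nip3_qe17 and -0.09 for nip2_tb1609 against wt, and the test of the difference gave 2.92 (edgeR quasi-likelihood interaction, adjusted p = 0.0239). All 3 nip2_nip3 libraries were above all 3 nip3_qe17 libraries, while nip2_tb1609 and wt libraries overlapped. The triple mutant, which also carries nip2 and nip3 mutations, stood at 2501, 2174 and 2408 CPM, with a log2 fold change of 0.19 against nip3_qe17 (adjusted p = 0.927). The value stayed between 2.38 and 3.37 over 22 alternatives and was called in 14 of them.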

How the results depend on the processing

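Over 20 alternatives MIRAGE1 stayed at a log2 fold change of 2.29 to 3.26 for nip2_nip3 against nip3_qe17 and was called in 17, and IR4 stayed at 0.95 to 1.42 over 19 and was called in 9. The count of 2 called families became 0 by library totals without TMM, 0 with only the 6 libraries in the fit and 0 there with a replicate block, 1 with a mean of at least 50 counts (a filter that drops IR4), 1 against a fold of 1.5 and 1 by library totals with CELE45 left out. It was 0 with the triple mutant in place of nip2_nip3, against either nip3 allele, and there Turmoil2 against nip3_qe17 reversed to 0.67. Leaving out 1 library at a time gave 1 to 2. The interaction count of 1 became 0 by totals without TMM, 2 with the CELE45 share as a covariate, and 0 to 1 without single libraries. The count of 1 for nip2_tb1609 against wt became 0 by totals, 0 at a mean of at least 50, 2 with the covariate, and 0 to 1 without single libraries. The 8 families of nip2_nip3 against wt became 2 at a mean of at least 50 and 35 with the covariate. The 2 of nip3_qe17 against wt became 5 with DESeq2, 1 at a mean of at least 50, 1 with the replicate block and 26 with the covariate, and 0 to 9 without single libraries, 9 being without nip3_qe17 library 1. The block changed no other count by over 1.5 times, and same-numbered libraries share only a number. The 35 small RNA families became 17 to 33 without single libraries, 17 being without nip3_qe17 library 3, and the 0 separating classes became 1 by share of all repeats, 1 without CELE45 and 0 to 2 without single libraries. By share of all repeats and without CELE45 the class was CMC, which holds MIRAGE1. Among uncalled families, CELE45 reversed to -0.015 without the 2 libraries of its highest share and ran from -1.43 to 3.34 without single libraries, CER1 ran from -0.78 to 0.023 and TC2 from -0.49 to 0.24, TC2 reversed to 0.16 without those 2 libraries, and LINE2C1_CE to -0.015 by totals. The cause of these changes was not tested. Turmoil2 had 14 to 48 counts a library in this comparison.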
